A study of Ambystoma mexicanum with 18 samples.

Results

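The genes described here are Prod1, Meis1, Meis2, Meis3, Pbx2, Pbx3, Pknox1 and Pknox2, a set of 8 that stands for proximal limb identity and for the homeodomain partners of Meis. They were taken by gene symbol from the count table, and 7 of the 8, out of 99126 gene models, have a row there. No row carries the symbol MEIS3, so Meis3 was not analysed here. PBX3 names 2 rows, and the one with more counts was used, since the other holds 1 count over all libraries.

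RNA was sequenced from 18 libraries of 300 sorted cells each, by the SMARTseq2 protocol. All cells came from forelimb blastemas of Hoxa13:Cherry transgenic axolotls (Ambystoma mexicanum) and were positive for the Cherry reporter, which marks the distal blastema. Tig1 and Tig1P155A cells were positive for both Cherry and GFP and had been electroporated with Tig1 or with its P155A mutant, with GFP linked through T2a. Control cells were positive for Cherry and negative for GFP, and the paper describes sorting them, too, after electroporation of the Tig1 constructs. No group received GFP without Tig1. Each kind of cell gave 3 libraries at 3 days post electroporation (dpe) and 3 at 8 dpe. Blastemas were pooled for each condition after the epidermis was removed, and the study's methods call the libraries of a condition biological replicates. How blastema pools map to libraries is not given in the sources used here, so p-values measure the spread between these libraries.

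Prod1 is a salamander protein of the three-finger family, linked to the cell surface by a membrane anchor in newts but without that anchor in axolotls, and is known to be more abundant in proximal than in distal limb cells and to respond to retinoic acid. Meis1, Meis2 and Meis3 are homeodomain transcription factors of the TALE class. In vertebrate limb buds Meis1 and Meis2 mark the upper arm and leg and respond to retinoic acid. Pbx proteins are TALE factors that pair with Meis and with Hox proteins on DNA, and Pknox proteins (also called Prep) are relatives of Meis that pair with Pbx as well.

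The study's scan of the DNA upstream of the Tig1 gene, on chromosome 10p of AmexG_v6.0-DD, lists sites for MEIS1 and MEIS2, and some are shown because Tig1 is the overexpressed gene and Meis and Pbx proteins are known to bind such letters. TGACAG, the core known for Meis and Pknox proteins, was searched in the MEIS2 sites and found in 4 of 7. TGATTNAT, a form of the composite site of Pbx with Hox, was searched in the MEIS1 sites and found in 4 of 6. Sites were read in the orientation the scan gives, the strands being +, −, +, − in the order printed for each factor, and capitals mark the match.
MEIS2 site 1: tTGACAGctttct
MEIS2 site 2: aTGACAGtttaca
MEIS2 site 3: cTGACAGctattc
MEIS2 site 4: aTGACAGctgtcc
MEIS1 site 1: tTGATTAATgga
MEIS1 site 2: gTGATTTATtga
MEIS1 site 3: gTGATTTATgtt
MEIS1 site 4: cTGATTGATtgg
On the opposite strand, 1 further MEIS2 site and 0 MEIS1 sites held the letters. Both motifs begin with TGA, and neither holds the other. The scan predicted these sites from motifs of MEIS1 and MEIS2, so matches to such letters were likely beforehand. TGACAG was not searched in the MEIS1 sites, nor TGATTNAT in the MEIS2 sites. A match describes the letters only. The share of other upstream regions that hold them was not measured, and binding was not measured in these libraries.

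Levels are CPM, counts scaled to a common library size by edgeR's TMM method, and they are compared between libraries for 1 gene at a time, never between genes. The quasi-likelihood test of edgeR was run over 25377 genes, and called below means a Benjamini-Hochberg adjusted p under 0.05. The average difference pools the 4 log2 fold changes of a gene against the control of the same time point, over both forms of Tig1 and both times. Totals lay between 9732514 and 23086124 counts per library, and mitochondrial genes took 18.4% to 65.4% of them. The gene that the study's files pair with Tig1 (LOC115479139, AMEX60DD001823) lay between 2.85 and 8.81 CPM in the 6 control libraries and between 151 and 514 CPM in the 12 overexpressing ones, and the groups did not overlap. HOXA13, whose reporter was used in the sort, lay between 77.1 and 116 CPM in control libraries and between 2.19 and 40.4 CPM in overexpressing ones.

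PROD1 was the 1 member called in all 4 comparisons with control. It was higher with either form of Tig1 at both times, and its level fell from 3 to 8 dpe in control cells. On average over the 4 comparisons, 4 of the 7 members were called, where 40.1% of all genes tested were called. PROD1, MEIS1 and PBX3 were higher, 3 of 7 beside 21.4% of all genes, and PKNOX2 was lower, 1 of 7 beside 18.7%. MEIS2, PBX2 and PKNOX1 were not called on average. At 3 dpe, 2 of 7 members were called with Tig1 (24% of all genes) and 4 of 7 with Tig1P155A (26.7%). At 8 dpe, PROD1 was the 1 member called with Tig1 (11.9% of all genes) and also the 1 member called with Tig1P155A (12.4%). Each member is a large share of 7, so these counts are given as a description beside the shares of all genes.

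**Figure D1:**
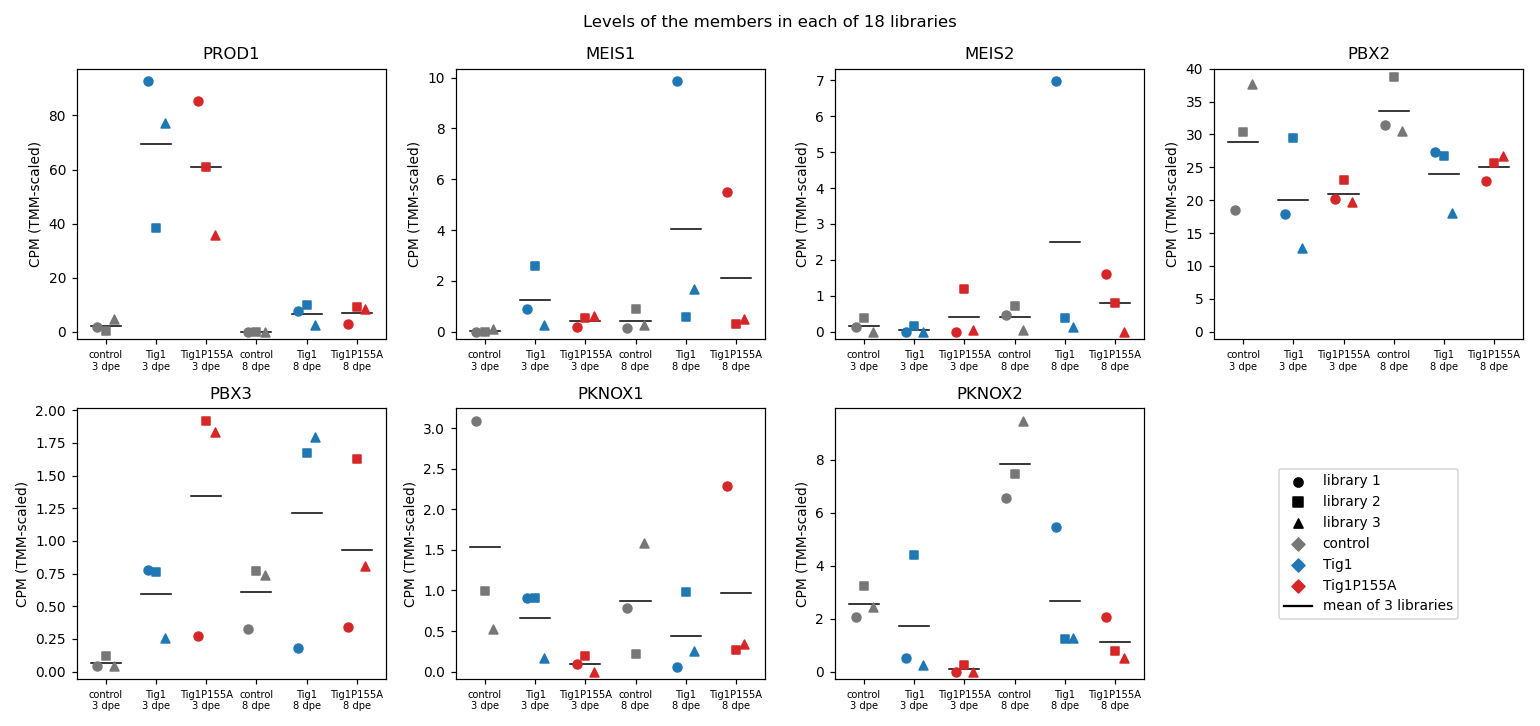
Level of each member in each of the 18 libraries, in TMM-scaled CPM on a linear axis that differs between panels. Symbols stand for the library number, colours for the kind of cell and lines for the mean of 3 libraries. PROD1 was at 0 in all control libraries at 8 dpe and between 35.8 and 92.7 CPM in the overexpressing libraries at 3 dpe.

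The row of PROD1 (AMEX60DD028208) lies on chromosome 3p from 722854759 to 722913067, on the minus strand of AmexG_v6.0-DD. In control cells at 3 dpe, PROD1 was at 1.91, 0.23 and 4.71 CPM in libraries 1, 2 and 3. In Tig1 cells at 3 dpe it was at 92.7, 38.2 and 77.1 CPM, and in Tig1P155A cells at 85.5, 61.1 and 35.8 CPM. Every overexpressing library at 3 dpe was thus above every control library. How many of all genes were so separated at 3 dpe alone was not measured. The log2 fold change was 4.93 ± 0.84 (SE) with Tig1 (edgeR adjusted p = 0.000372) and 4.74 ± 0.84 with Tig1P155A (adjusted p = 0.000417). As ratios of scaled counts, these were 38.9-fold (95% interval 33.3 to 45.7) and 27.7-fold (23.7 to 32.5), intervals that cover counting error only.

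At 8 dpe, PROD1 had no count in any of the 3 control libraries. In Tig1 cells it was at 7.76, 9.90 and 2.43 CPM, and in Tig1P155A cells at 2.87, 9.10 and 8.53 CPM. All 6 overexpressing libraries therefore lay above the controls. The bound used here for a count of 0 was 3 counts over the control group, roughly its 95% counting limit. Against that bound, the level of PROD1 in Tig1 cells was at least 197.1-fold higher. In Tig1P155A cells it was at least 197.4-fold higher. Both values cover counting error only and leave out the spread between libraries. edgeR's adjusted p was 7.38e-05 and 6.92e-05. Over both times, PROD1 exceeded all controls of the same time in 12 of 12 overexpressing libraries, as 10.9% of all genes tested did.

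From highest to lowest group mean, PROD1 stood at 69.4 ± 28.1 CPM in Tig1 cells at 3 dpe, 60.8 ± 24.8 in Tig1P155A cells at 3 dpe, 6.83 ± 3.45 in Tig1P155A cells at 8 dpe, 6.70 ± 3.84 in Tig1 cells at 8 dpe, 2.28 ± 2.26 in control cells at 3 dpe and 0 in control cells at 8 dpe (SD, n = 3 each). The forms of Tig1 did not differ beyond their spread at either time, with log2 differences of Tig1P155A from Tig1 of −0.19 ± 0.71 (SE) at 3 dpe and 0.03 ± 0.72 at 8 dpe (edgeR adjusted p = 1 for both). Tig1 cells at 8 dpe and control cells at 3 dpe, neighbours in this order, were not compared by a test, and their libraries overlapped.

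PROD1 was lower at 8 than at 3 dpe in each kind of cell. In control cells it was at least 51.8-fold lower, a bound against 3 counts at 8 dpe that covers counting error only. PROD1 was the 1 member called there (edgeR adjusted p = 0.0152), where 0.422% of all genes were. In Tig1 cells it was 10.2-fold lower (counting interval 9.14 to 11.4), with an adjusted p of 0.101 by edgeR and 0.00154 by DESeq2. In Tig1P155A cells it was 7.25-fold lower (6.55 to 8.05), with an adjusted p of 0.0578 by edgeR and 0.00166 by DESeq2. The groups at 3 and 8 dpe did not overlap in any of the 3 kinds of cell, and the share of all genes separated in this way was not measured. In control cells the separation rested on few counts, library 2 at 3 dpe holding 8 and each library at 8 dpe 0. The call in control cells was lost when any control library at 8 dpe was left out, with adjusted p of 0.0554 without library 1, 0.0524 without library 2 and 0.0804 without library 3. In Tig1P155A cells edgeR made the call without control library 2 at 3 dpe (adjusted p = 0.0219) or control library 3 at 3 dpe (0.0431).

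Markers of myeloid cells, like PROD1, were higher in overexpressing than in control cells. Of 18 myeloid markers listed, 14 have a row and 13 were tested. All 13 were called higher on average in overexpressing cells, beside 21.4% of all genes tested. Their summed level lay between 1.80 and 101 CPM in control libraries and between 4642 and 11740 CPM in overexpressing libraries. Among control libraries at 3 dpe the sum was 101, 1.80 and 66.4 CPM in libraries 1, 2 and 3, and library 2, with the lowest sum, also had the lowest PROD1, while library 1, with the highest sum, had less PROD1 than library 3. In control libraries at 8 dpe the sum was 25.9, 22.6 and 32.2 CPM, where PROD1 had no count. From 3 to 8 dpe the median log2 fold change of the 13 markers was −1.24, −0.75 and −0.50 in control, Tig1 and Tig1P155A cells. That of PROD1 was −8.46, −3.35 and −3.14. By edgeR 0 of the 13 were called between the times, beside 0.422%, 0.0512% and 1.38% of all genes. The part of these cells in the PROD1 result was not tested. Fewer or more cells of a type and less or more RNA per cell cannot be told apart in such bulk samples.

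**Figure D2:**
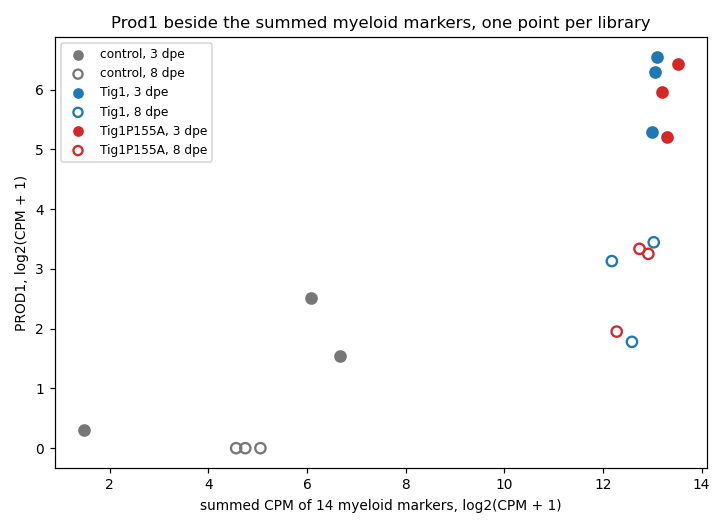
PROD1 against the summed CPM of the 14 myeloid markers that have a row, both as log2(CPM + 1), with 1 point per library. Filled points are 3 dpe and open points 8 dpe. The 12 overexpressing libraries have myeloid sums of 4642 to 11740 CPM, and within them PROD1 at 3 dpe lies above PROD1 at 8 dpe.

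The genes whose 6 group means followed those of PROD1 most closely, among 11186 named genes whose mean over libraries reached 1 CPM, were ARG1, DR999_PMT07514, AZU1, HMOX1 and DXO. Their root mean square differences from PROD1, on centred log2(CPM + 1), were 0.29, 0.38, 0.46, 0.52 and 0.55. ARG1, which encodes arginase, stood at 4.48 and 0.34 CPM in control cells at 3 and 8 dpe, at 88.8 and 13.4 CPM in Tig1 cells and at 86.3 and 14.5 CPM in Tig1P155A cells. HMOX1, which encodes the heme-degrading enzyme heme oxygenase, stood at 40.2 and 8.40 CPM in control cells at 3 and 8 dpe. It was at 976 and 112 CPM in Tig1 cells and at 1197 and 196 CPM in Tig1P155A cells. With a pseudocount of 0.1 in place of 1, ARG1, DR999_PMT07514 and HMOX1 were again among the first 5, beside PGRP1 and RNF213.

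MEIS1 was higher on average in overexpressing cells, but its level was low and uneven between libraries. The row of MEIS1 (AMEX60DD035598) lies on chromosome 4q from 557863907 to 558046359, on the minus strand. In control cells at 3 dpe it was at 0, 0 and 0.12 CPM, 3 counts in all. In Tig1 cells at 3 dpe it was at 0.91, 2.58 and 0.25 CPM, and in Tig1P155A cells at 0.18, 0.53 and 0.61 CPM. In scaled CPM all 6 of these libraries lay above the controls, on few counts. Tig1P155A library 1 held 2 counts, and Tig1 library 3 held 3, as did control library 3. The share of all genes separated in this way at 3 dpe was not measured.

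With Tig1 at 3 dpe, the log2 fold change of MEIS1 was 4.75 ± 1.58 (SE, edgeR adjusted p = 0.0356), and the ratio of scaled counts was 26.7-fold with a counting interval of 8.51 to 135. That call was lost without Tig1 library 2 (3.73, adjusted p = 0.112), without control library 1 (4.27, adjusted p = 0.117) and without control library 2 (4.04, adjusted p = 0.129). With Tig1P155A at 3 dpe the log2 fold change was 3.32 ± 1.52 (adjusted p = 0.117), and leaving out control library 3 at 3 dpe, the 1 control library there with counts, gave 6.08 and an adjusted p of 0.0477.

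At 8 dpe MEIS1 was at 0.16, 0.88 and 0.26 CPM in control cells, at 9.87, 0.59 and 1.67 CPM in Tig1 cells and at 5.50, 0.32 and 0.50 CPM in Tig1P155A cells. Library 1 of each overexpressing group stood far above the other two, which overlapped the controls except for Tig1 library 3. Neither difference from control was called, with log2 fold changes of 3.23 ± 1.38 (SE, edgeR adjusted p = 0.154) and 2.26 ± 1.34 (0.315). Without Tig1P155A library 1 at 8 dpe the latter turned to −0.06. The average over the 4 comparisons was 3.39 ± 0.97 (adjusted p = 0.00969). With both of these libraries left out, a setting chosen after the data were seen, it was 2.34 ± 0.86 (adjusted p = 0.0397). MEIS1 lay above every control of its time in 9 of 12 overexpressing libraries, and the share of all genes that reach 9 was not measured.

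MEIS2 did not pass the test in any comparison. The row of MEIS2 (AMEX60DD012146) lies on chromosome 14q from 371777636 to 372122749, on the plus strand. At 3 dpe it was at 0.14, 0.38 and 0 CPM in control cells, at 0, 0.15 and 0 CPM in Tig1 cells and at 0, 1.20 and 0.05 CPM in Tig1P155A cells. At 8 dpe it was at 0.46, 0.71 and 0.04 CPM in control cells, at 6.98, 0.39 and 0.13 CPM in Tig1 cells and at 1.61, 0.79 and 0 CPM in Tig1P155A cells. One library, Tig1 library 1 at 8 dpe, thus stood apart for MEIS2 as it did for MEIS1, and elsewhere the groups overlapped. The average log2 fold change was 0.64 ± 1.34 (SE, edgeR adjusted p = 0.779), and it was −0.14 without that library.

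Tig1 library 1 at 8 dpe also carried the highest summed endothelial markers of all libraries, 135 CPM against 3.45 to 49.1 CPM in control libraries, and the highest summed epidermal markers, 2152 CPM against 516 to 928 CPM. Its connective tissue sum, 12633 CPM, was the highest of the 12 overexpressing libraries. Tig1P155A library 1 at 8 dpe had an epidermal sum of 879 CPM and an endothelial sum of 10.1 CPM, and its summed muscle markers, 549 CPM, were the highest of all libraries. Tig1 library 3 at 8 dpe had a muscle sum of 538 CPM, against 6.65 to 34.9 CPM in control libraries at 8 dpe. Mitochondrial genes took 45.2% of counts in Tig1 library 1 at 8 dpe, 63.2% in Tig1P155A library 1 at 8 dpe and 65.4% in Tig1 library 2 at 3 dpe, the 3 libraries with the highest MEIS1. Tig1P155A library 1 at 3 dpe, with 57.1%, had the lowest MEIS1 of the overexpressing libraries, 0.18 CPM. Tig1 library 3 at 8 dpe, with 52.9%, had 1.67 CPM, the next highest MEIS1 after the 3 libraries above. Control library 2 at 8 dpe, with 45.3%, had 0.88 CPM, the highest MEIS1 of the control libraries. The part of these markers and of the mitochondrial share in the MEIS1 and MEIS2 levels was not tested.

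PBX2 stood between 12.7 and 38.7 CPM over the 18 libraries. The row of PBX2 (AMEX60DD010482) lies on chromosome 13q from 402667949 to 402818285, on the plus strand. At 3 dpe PBX2 was at 18.6, 30.5 and 37.7 CPM in control cells, at 17.9, 29.4 and 12.7 CPM in Tig1 cells and at 20.1, 23.1 and 19.8 CPM in Tig1P155A cells. At 8 dpe it was at 31.5, 38.7 and 30.6 CPM in control cells, at 27.4, 26.7 and 18.1 CPM in Tig1 cells and at 22.9, 25.6 and 26.8 CPM in Tig1P155A cells. At 3 dpe the groups overlapped, while at 8 dpe all 6 overexpressing libraries lay below the 3 controls. The share of all genes separated in this way at 8 dpe was not measured.

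PBX2 was not called in any comparison with control. Its 4 log2 fold changes lay between −0.54 and −0.42, and their average was −0.47 ± 0.20 (SE, edgeR adjusted p = 0.0623). That average did pass the test by DESeq2 (adjusted p = 0.0109), with DESeq2's size factors in edgeR (0.0231), without mitochondrial genes (0.00975) and among genes with at least 1 CPM in 3 libraries (0.0403). It also passed without Tig1 library 2 at 3 dpe (−0.57, adjusted p = 0.0168), Tig1 library 2 at 8 dpe (−0.56, 0.0458), control library 1 at 3 dpe (−0.59, 0.0241) or control library 3 at 8 dpe (−0.58, 0.0478). It passed as well with library size as the only scaling (−1.09, adjusted p = 0.00306), a scaling that moves the median of all genes from 0.05 to −0.52.

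PBX3 was higher on average, by 2.19 ± 0.69 on the log2 scale (SE, edgeR adjusted p = 0.0168). The row of PBX3 (AMEX60DD050513) lies on chromosome 8p from 84968531 to 85294684, on the minus strand. At 3 dpe it was at 0.05, 0.12 and 0.04 CPM in control cells, at 0.78, 0.76 and 0.25 CPM in Tig1 cells and at 0.27, 1.92 and 1.84 CPM in Tig1P155A cells. Every overexpressing library at 3 dpe lay above the controls in scaled CPM. Tig1P155A library 1 and Tig1 library 3 held 3 counts each, however, and control library 2 held 4. How many of all genes were separated in this way was not measured. The log2 fold change was 4.16 ± 1.14 with Tig1P155A (adjusted p = 0.0106) and 2.99 ± 1.11 with Tig1 (adjusted p = 0.0579), and the latter passed without Tig1 library 1 at 8 dpe (0.0439) or Tig1P155A library 1 at 3 dpe (0.0465).

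At 8 dpe PBX3 was at 0.33, 0.77 and 0.74 CPM in control cells, at 0.18, 1.67 and 1.79 CPM in Tig1 cells and at 0.34, 1.63 and 0.81 CPM in Tig1P155A cells. The groups overlapped there, and the log2 fold changes were 0.98 ± 1.0 (SE, edgeR adjusted p = 0.585) and 0.62 ± 0.99 (0.757). Leaving out control library 1 at 8 dpe ended the call on the average (1.97, adjusted p = 0.0562). In control cells PBX3 had 6 counts at 3 dpe and 44 at 8 dpe, and the difference between the times was not called (3.02 ± 1.10, adjusted p = 0.357).

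PKNOX2 was the 1 member called as lower on average, by 2.44 on the log2 scale (SE 0.61, edgeR adjusted p = 0.00358). The row of PKNOX2 (AMEX60DD054026) lies on chromosome 9p from 218948289 to 219881433, on the minus strand. At 3 dpe it was at 2.04, 3.23 and 2.44 CPM in control cells, at 0.52, 4.40 and 0.25 CPM in Tig1 cells and at 0, 0.24 and 0 CPM in Tig1P155A cells. Tig1 library 2 lay above the controls and the other 5 overexpressing libraries below them. The log2 fold change was −4.75 ± 1.24 with Tig1P155A (adjusted p = 0.00781) and −0.63 ± 1.02 with Tig1 (adjusted p = 0.685).

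At 8 dpe PKNOX2 was at 6.55, 7.47 and 9.45 CPM in control cells, at 5.47, 1.23 and 1.28 CPM in Tig1 cells and at 2.06, 0.79 and 0.50 CPM in Tig1P155A cells. All 6 overexpressing libraries lay below the controls, which made 11 of 12 over both times, and 10.8% of all genes tested had 11 or 12 below. Neither comparison passed the test at 8 dpe, with log2 fold changes of −1.55 ± 1.02 for Tig1 (SE, edgeR adjusted p = 0.362) and −2.84 ± 1.08 for Tig1P155A (adjusted p = 0.103). For Tig1P155A at 8 dpe DESeq2 gave an adjusted p of 0.0161.

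Markers of connective tissue fell with PKNOX2, 17 of 18 tested being called lower on average beside 18.7% of all genes. Their summed level lay between 8024 and 23237 CPM in control libraries and between 1080 and 12633 CPM in overexpressing ones. Of the overexpressing libraries, the one with the highest PKNOX2, Tig1 library 1 at 8 dpe, also had the highest sum, while Tig1 library 2 at 3 dpe, second for PKNOX2, had a sum of 1955 CPM. The part of connective tissue cells in the PKNOX2 result was not tested. The genes with group means nearest to those of PKNOX2 were PLXNB1, HS3ST1 and ADAM12, with root mean square differences of 0.14, 0.17 and 0.19.

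PKNOX1 was called in 1 comparison. The row of PKNOX1 (AMEX60DD046801) lies on chromosome 7p from 21159617 to 21608986, on the minus strand. At 3 dpe it was at 3.09, 0.99 and 0.53 CPM in control cells, at 0.91, 0.91 and 0.17 CPM in Tig1 cells and at 0.09, 0.19 and 0 CPM in Tig1P155A cells. The Tig1P155A libraries lay below the controls, and the Tig1 libraries overlapped them. Those Tig1P155A libraries held 1, 4 and 0 counts, and the share of all genes separated in this way was not measured. The log2 fold change with Tig1P155A was −3.92 ± 1.41 (SE, edgeR adjusted p = 0.0472).

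That PKNOX1 call was lost without Tig1P155A library 1, 2 or 3 at 3 dpe (adjusted p of 0.115, 0.0501 and 0.139), without control library 1 or 2 at 3 dpe (0.178 and 0.0574) and without control library 1 at 8 dpe (0.0529). At 8 dpe it was at 0.79, 0.22 and 1.59 CPM in control cells, at 0.06, 0.98 and 0.26 CPM in Tig1 cells and at 2.29, 0.26 and 0.35 CPM in Tig1P155A cells, and the groups overlapped. The average log2 fold change of PKNOX1 was −1.49 ± 0.73 (SE, edgeR adjusted p = 0.111), and it passed the test without Tig1 library 2 at 8 dpe (−1.97, 0.0418) or Tig1P155A library 1 at 8 dpe (−1.89, 0.0441).

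**Figure D3:**
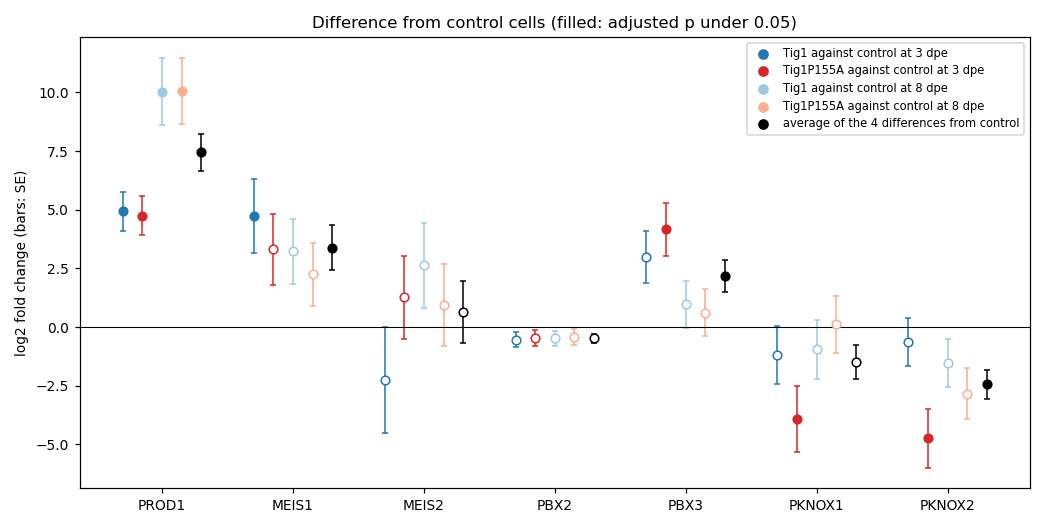
Log2 fold change of each member against control cells of the same time point, by edgeR, with SE bars. Colours stand for the comparison, black for the average of the 4, and filled points passed the test. PROD1 passed in all 4 comparisons, while no other member passed at 8 dpe.

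No member differed between the 2 forms of Tig1 by edgeR's test. None of the 7 was called at 3 dpe, where 0.00394% of all genes were, and none at 8 dpe or on average, where 0% of all genes were. DESeq2 called none of them either. At an unadjusted p under 0.05, 1 member, PKNOX2, differed at 3 dpe, with a log2 difference of Tig1P155A from Tig1 of −4.12 ± 1.24 (SE, edgeR adjusted p = 0.814), and on average over both times (−2.71 ± 0.80, adjusted p = 0.690). At 8 dpe 0 members had an unadjusted p under 0.05. Of all 25377 genes tested, 1503 had such a p at 3 dpe, 1169 at 8 dpe and 1756 on average. These tests do not show that the forms act alike.

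Between 3 and 8 dpe, no member was called in Tig1 cells (0.0512% of all genes) or in Tig1P155A cells (1.38%) by edgeR. At an unadjusted p under 0.05 there were 2 members in Tig1 cells, PROD1 and MEIS2, and 3 in Tig1P155A cells, PROD1, PKNOX1 and PKNOX2. Of all 25377 genes tested, 3196 in Tig1 cells and 3400 in Tig1P155A cells had such an unadjusted p by edgeR. DESeq2 called PROD1 in both kinds of cell and PKNOX2 in Tig1P155A cells (adjusted p = 0.0443). The change of the overexpression effect from 3 to 8 dpe was called for 0 members (0.142% of all genes). Its unadjusted p was under 0.05 for PROD1 and PBX3, as for 2405 of the 25377 genes tested. DESeq2 called it for none of the members. For PROD1 the change was 5.21 ± 1.75 on the log2 scale (edgeR adjusted p = 0.339), a value that rests on the control libraries at 8 dpe, all of which are at 0.

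Other TALE genes, listed together with PBXIP1, which encodes a protein that binds Pbx, were lower where they passed the test against control. Of 11 listed, 8 were tested, and on average 4 were lower and 0 higher (18.7% and 21.4% of all genes). Their median log2 fold change was −1.66 beside 0.05 over all genes tested. PBXIP1 fell by 2.23 on average. In Tig1 cells at 8 dpe, however, its mean was 13.0 CPM, with libraries from 2.02 to 31.6 CPM, beside 6.34 CPM in control cells. In the other overexpressing groups its mean lay below the control of the same time. TGIF1 and TGIF2, repressors of the TALE class, fell by 2.13 and 2.65. MKX, known from tendon, fell by 2.59.

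No tested gene of a list for the proximal limb and retinoic acid metabolism was called as higher in a comparison with control. Of 12 listed, 7 were tested, and on average 4 were lower and 0 higher (18.7% and 21.4% of all genes), with a median of −0.93 beside 0.05 over all genes tested. SHOX2, a factor of the upper arm skeleton in mouse, fell by 4.16 on the log2 scale (SE 0.62, edgeR adjusted p = 4.51e-05). TBX5, which marks the forelimb, fell by 2.61, TBX18 by 2.7 and RDH10, an enzyme of retinoic acid synthesis, by 0.74. Of 17 distal limb genes 16 were tested, and 13 were lower and 0 higher on average. The list is not independent of these data. It holds HOXA13, whose reporter was used in the sort, and LHX2, LHX9, LMO1, FGF8 and SPRY1. The paper reports all of these as lower in the same experiment. Of 16 Hox genes listed as partners of Meis and Pbx, 8 were tested, of which HOXA3, HOXA9, HOXD8 and HOXD10 were lower and 0 higher. Connective tissue markers fell beside these lists, 17 of 18 with a median of −2.16, and their part in the list values was not tested.

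Of the genes related to Prod1, 14 were listed and 7 tested. MMP9, a matrix metalloproteinase that newt Prod1 is known to induce, rose by 5.15 on the log2 scale (SE 0.51, edgeR adjusted p = 1.77e-07), and PLAUR, the urokinase receptor and a three-finger protein, rose by 6.88 (SE 0.68, adjusted p = 1.74e-07). MMP9 also stands on the list of neutrophil granule genes, and all 13 myeloid markers tested rose beside both genes, with a median of 7.24. The part of myeloid cells in these values was not tested. LYPD6 and LYPD6B, further three-finger proteins, fell by 4.09 and 2.7. AGR2, the relative of the newt ligand of Prod1, was not called (2.62 ± 1.13, adjusted p = 0.0736), and neither was CD59 (0.27 ± 0.26, adjusted p = 0.452), the complement inhibitor to which Prod1 has been likened.

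**Figure D4:**
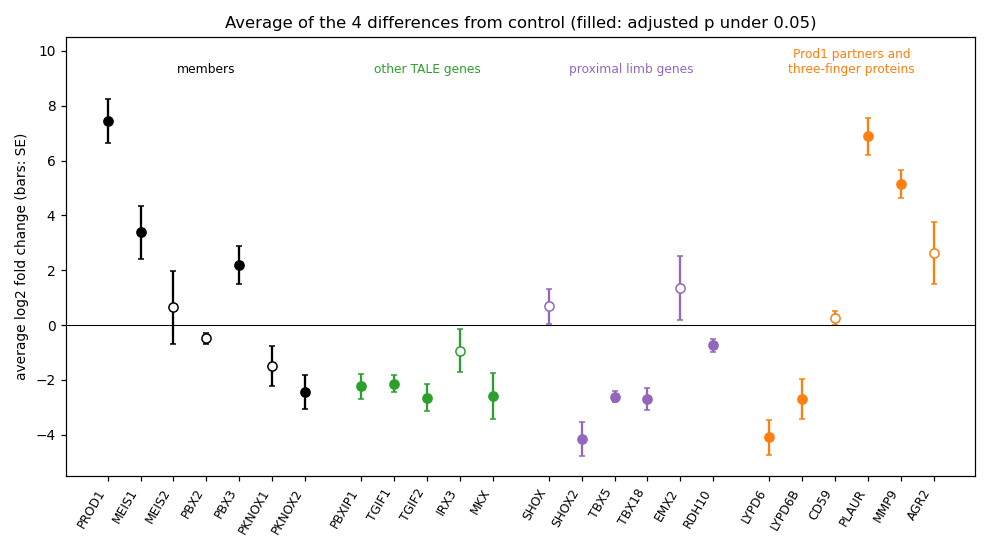
Average log2 fold change of the members and of the tested genes of 3 related lists, by edgeR, with SE bars. Filled points passed the test. IRX1, IRX2, IRX6 and AGR3 were tested but are not drawn, since their SE was too wide, and IRX3 stands on both the TALE and the proximal list. The genes that passed on the TALE list, which includes PBXIP1, and on the proximal list were all lower. Among the members PROD1, MEIS1 and PBX3 were higher and PKNOX2 was lower. On the list related to Prod1, MMP9 and PLAUR were higher, and LYPD6 and LYPD6B were lower.

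Within a time point, the level of each member was set against that of the Tig1 gene over the 6 overexpressing libraries. Of 14 relations, 0 passed the exact permutation test after Benjamini-Hochberg adjustment, the lowest adjusted p being 0.233. MEIS1 at 8 dpe had the relation farthest from 0, with Pearson's r of −0.91 (exact permutation p = 0.0417, adjusted p = 0.233) and Spearman's rho of −0.66 (p = 0.175, adjusted p = 0.49). Without the 2 libraries farthest from the median Tig1 level r was −0.23, so that this relation rested on those libraries.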

How the data were processed

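The authors aligned reads with STAR 2.7.6a to AmexG_v6.0-DD, with curated HoxA and HoxD models, the mitochondrial genome and ERCC sequences added, and counted uniquely mapped reads per gene model with featureCounts 2.0.1. The values they deposited are raw counts per gene and library, without normalization. Strandedness of the counting is not given in the sources used here. Models overlap PBX2 (1) and PBX3 (2) on the opposite strand, all with 0 counts.

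The 92 ERCC rows (0 counts) were dropped, while the 37 genes of the mitochondrion stayed in. The filter asked for 0.5 CPM or more in 1 library or more and left 25377 genes, tested in R 4.3.3 with edgeR 4.0.16, with a mean per group over all 18 libraries, 12 comparisons and 12 residual degrees of freedom. DESeq2 1.42.0 was an alternative, beside other scalings, filters, sample choices and each library left out. Correlations and their permutation tests were computed in Python 3.11.15, counting intervals with scipy 1.17.1 and figures with matplotlib 3.10.9. The test was tried on simulated data. Counting intervals are exact binomial at 95%. The SE of a fold change is its size divided by the square root of F.

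Members, gene lists and tests were chosen with earlier results of these data known. The list of other TALE genes was shortened by 1 gene that is not reported here. Named genes are the members, the Tig1 gene and HOXA13 as checks of the labels, the 3 genes (5 for PROD1) nearest in group means, and single genes of the lists where a result turns on them. Other marker lists (lymphocyte, thrombocyte, blood stem and progenitor, erythroid, muscle, Schwann cell) are given among the other observations.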

Additional observations from a re-analysis of the deposited data

How the results depend on the processing

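PROD1 was called in each of the 4 comparisons with control and on average under all alternatives that were run. Of 2380 single-member values, 60 were counted as turned in direction, 0 of them called before or after. The 2380 include the relations with the Tig1 gene, but changes in the sign of r there, all uncalled, are not among the 60. The turned values named here belong to values reported above. That choice was made after the values were seen, as was leaving out both libraries 1 at 8 dpe.

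Counts of members called moved as follows, and the cause was not tested. With only the libraries compared in the fit, 1 was called in place of 2 with Tig1 at 3 dpe, 2 in place of 1 with Tig1P155A at 8 dpe, 0 in place of 1 between the times in control cells (PROD1, edgeR adjusted p = 0.0601) and 1 in place of 0 between the times in Tig1P155A cells. Library size alone and DESeq2 each gave 2 with Tig1P155A at 8 dpe, PKNOX2 being the second. Between the times DESeq2 gave 1 in Tig1 and 2 in Tig1P155A cells, in place of 0. With every gene with at least 1 count tested (44224 genes), there were 2 with Tig1P155A at 8 dpe, 2 between the times in Tig1 and 2 in Tig1P155A cells, 1 between the forms of Tig1 at 3 dpe and 1 on average (PKNOX2), and 1 for the change of the effect between the times (PROD1). With a library left out, the counts ran from 1 to 3 with Tig1 at 3 dpe, from 3 to 5 with Tig1P155A at 3 dpe and from 3 to 6 on average. Between the times they ran from 0 to 1 in control and from 0 to 1 in Tig1P155A cells. With library size alone MEIS1 with Tig1 at 3 dpe (3.80, adjusted p = 0.0665) and PBX3 on average (1.69, 0.0721) lost their calls, while PBX2 with Tig1 at 3 dpe (−1.40, 0.0387) and PKNOX1 (−2.08, 0.0224) and PBX2 (−1.09, 0.00306) on average gained one.

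Log2 fold changes that crossed 0 were all uncalled. With a library left out, MEIS2 ran from −2.39 to 2.49 with Tig1P155A at 3 dpe, from −0.54 to 3.30 with Tig1 at 8 dpe, from −0.040 to 1.62 with Tig1P155A at 8 dpe and from −0.33 to 1.24 on average. With Tig1P155A at 8 dpe, MEIS1 ran from −0.059 to 3.25, PKNOX1 from −1.49 to 0.82 and PBX3 from −0.034 to 0.99. For PROD1 the forms differed by −0.52 to 0.21 at 3 dpe and by −0.35 to 0.51 at 8 dpe. Without both libraries 1 at 8 dpe, MEIS2 at 8 dpe was at −0.54 for Tig1 and at −0.038 for Tig1P155A, its average being −0.38, and with Tig1P155A at 8 dpe MEIS1 was at −0.064 and PKNOX1 at −1.49. PKNOX1 there was also at −0.77 with library size alone and −0.097 without mitochondrial genes.

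Libraries with the same replicate number did not deviate together (18 pairs within a time, r from −0.258 to 0.213), so the numbers were not taken to pair them. With the replicate number as a block, 3 members in place of 4 were called with Tig1P155A at 3 dpe (PKNOX1, edgeR adjusted p = 0.0631). With Tig1 at 3 dpe MEIS1 lost its call (4.52, 0.0695) and PBX3 gained one (3.39, 0.0327). PKNOX1 with Tig1P155A at 8 dpe was at −0.54, and the forms differed for PROD1 by −0.0023 at 8 dpe.

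Over all genes, between the times edgeR called 107, 13 and 349 in control, Tig1 and Tig1P155A cells, DESeq2 530, 656 and 1307, and edgeR on every gene 877, 1220 and 1586. Between the forms, where edgeR called 1, 0 and 0, DESeq2 called 84 at 3 dpe, 22 at 8 dpe and 59 on average, edgeR on every gene 432, 226 and 512. Library size alone left 29 in control cells between the times. For the change of the effect between the times, edgeR called 36 genes, DESeq2 354, edgeR on every gene 659, and library size alone, the filter of 1 CPM in 3 libraries and leaving out mitochondrial genes 0, 12 and 17. Depth limits MEIS1, MEIS2, PBX3 and PKNOX1 most, since a few counts decide their levels in many libraries.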

Other observations

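Marker lists of other cell types did not all move with overexpression. Over all genes tested, 21.4% were higher and 18.7% lower on average over the 4 comparisons. On that average, 1 of 5 lymphocyte markers tested was higher by edgeR and 0 were lower, with summed levels of 0.06 to 0.33 CPM in control and 0.37 to 7.89 CPM in overexpressing libraries. Of 8 thrombocyte markers 2 were higher and 1 lower, and of 7 blood stem and progenitor markers 2 were higher and 4 lower. Of 4 erythroid markers 0 were higher and 1 lower. Of 8 endothelial markers 2 were higher and 0 lower. Of 6 epidermal markers 0 were higher and 1 lower, of 6 muscle markers 0 and 2, and of 7 Schwann cell markers 2 and 1. The 1 neutrophil granule gene tested, MMP9, was higher. Blood stem and progenitor sums lay between 56.9 and 172 CPM in control and between 53.9 and 112 CPM in overexpressing libraries.

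MEIS1 had as its nearest genes in group means EOD39_21475, CHPT1 and EPS8L1, with root mean square differences of 0.10, 0.16 and 0.16, and PBX2 had RHNO1, CERCAM and SLC25A11, with 0.04, 0.05 and 0.05. With a pseudocount of 0.1, the 3 nearest to MEIS1 were CAPSL.L, RETREG1 and FUGU_019069.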
